A study of Mus musculus with 2 samples.

Results

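Fc receptors bind the constant part of antibodies, and complement receptors bind fragments of complement proteins. The 10 genes described here encode such receptors, their adaptors and 2 complement regulators, and were chosen by symbol: Fcer2a, Fcgr2b, Fcmr, Fcrl1, Fcrl5, Fcrla, Cr2, Cd55, Cd59a and Fcer1g. All 10 were found among the 32285 genes of the count tables. The question of the study, from its title, is the part of the Th17 pathway in antibodies to HLA in sensitized mice. Spleen cells of wild-type C57BL/6 recipients of tail skin were profiled in droplets, with reads from the 5′ ends of transcripts. ALLO is 1 library from recipients of skin carrying the human HLA-A2.1 transgene (donor strain C57BL/6-Tg(HLAA2.1)1Enge/J), grafted at week 0 and week 5. SYN is 1 library from recipients of skin from wild-type C57BL/6 donors, grafted in the same way. Spleens were taken 4 weeks after the second graft, and cells were frozen, thawed and passed over a column that removes dead cells. The graft recipients carried no transgene, and the labels do not say how many animals, or of what age, each library holds.

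Antibody binding is read by B cells in opposing ways. Fcgr2b encodes the inhibitory receptor for IgG, which recruits a phosphatase when it is brought together with the B cell receptor, while Fcer2a encodes CD23, a low-affinity receptor for IgE, and Fcmr a receptor for IgM. Cr2 encodes complement receptors 1 and 2 in mice, which strengthen signals from antigens coated with complement, and marginal zone B cells of the spleen are known for high Cr2 and low Fcer2a.

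Cells were assigned by the UMIs (counted molecules) of genes that are not among the 10. B cells held at least 2 UMIs of Cd79a and Cd79b together and none of Cd3d, Cd3e or Cd3g, and were split into IgD-positive (at least 1 Ighd UMI) and IgD-negative cells. Overlapping subsets of B cells held at least 1 UMI of Myof or S1pr3, genes of marginal zone B cells, or of Cd93, a gene of immature B cells. Plasma cells held at least 3 Jchain UMIs and 1 Xbp1 UMI, T cells a Cd3 UMI and no Cd79a UMI, NK cells an Ncr1 or Klrb1c UMI and no Cd3e UMI, and myeloid cells at least 2 UMIs of Csf1r and Lyz2 together. Among barcodes with at least 1000 UMIs, the gates held 6980 ALLO and 6822 SYN B cells, 5210 and 4852 of them IgD-positive, 460 and 412 with Myof or S1pr3, and 144 and 127 with Cd93. They held 1772 and 2417 T cells, 241 and 370 NK cells, 38 and 175 myeloid cells, and 32 and 40 plasma cells.

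Values are UMIs per 1000000 UMIs of the gate (CPM), and parentheses give exact 95% intervals, which cover counting error only. With 1 library per group there was no replicate check and no test, and every difference is between these 2 libraries. A gene was called apart at 1.5-fold or more with at least 50 UMIs over both libraries. In all, 264 barcodes occurred in both libraries, 2.36% of ALLO and 1.49% of SYN barcodes, and leaving them out changed no count of called genes between libraries or in the Myof or S1pr3 comparison. The Myof or S1pr3 B cells summed to 539.5 (ALLO) and 611 (SYN) CPM over 4 other marginal zone markers, against 201 and 212 in IgD-positive B cells. The Cd93 B cells summed to 1051 and 1071 CPM over 4 transitional markers, against 639 and 712, with Rag1 at 0 UMIs in both. The myeloid gate was led by neutrophil genes: 4 neutrophil markers made up 154618 and 65318 CPM there, and 6 monocyte or macrophage markers 970.1 and 1592 CPM. Of the plasma cell gate, 62.5% and 57.5% of barcodes also passed another lineage gate.

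Of the receptors for antibody, Fcmr (ENSMUSG00000042474, chromosome 1, 130865669 to 130880791, plus strand of GRCm38) stood at 958 CPM (945 to 972) in the IgD-positive B cells of ALLO and 1089.8 CPM (1074 to 1106) in those of SYN. Its highest level was in Cd93 B cells, at 1083 and 1214 CPM, and its level in IgD-negative B cells, 722 and 807 CPM, overlapped that in Myof or S1pr3 B cells. After each cell was thinned to 1000 UMIs, 54.2% of ALLO and 58.0% of SYN B cells kept an Fcmr UMI (84.5% and 84.5% before thinning), against 1.47% and 1.70% of T cells. The median depth was 3177 and 3002 UMIs per B cell and 4213.5 and 4044 per T cell.

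Fcer2a (ENSMUSG00000005540, chromosome 8, 3681737 to 3694175, minus strand) was highest in IgD-positive B cells, at 558 CPM (547 to 568, ALLO) and 571 CPM (559.8 to 582, SYN). Cd93 B cells followed at 469 and 455 CPM and IgD-negative B cells at 399 and 399 CPM, the last pair with overlapping intervals in SYN. Myof or S1pr3 B cells were lowest among the B subsets at 233 and 259 CPM.

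Fcgr2b (ENSMUSG00000026656, chromosome 1, 170958617 to 170976547, minus strand) was nearly even over B cells. In ALLO it read 130.3 CPM in Myof or S1pr3, 118 in IgD-negative, 111 in IgD-positive and 90.6 in Cd93 B cells, each overlapping the next. In SYN the corresponding values were 119.6, 117, 111 and 99.0 CPM, again overlapping, and the myeloid gate stood beside them at 123 (98.9 to 152) CPM. Its sequence is close to that of Fcgr3, so the counting could split reads between them.

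The Fc receptor-like genes encode relatives of the IgG receptors. Fcrl1 (ENSMUSG00000059994, chromosome 3, 87376387 to 87402934, plus strand), a surface protein of B cells, read 144 and 154 CPM in IgD-positive B cells and 138 and 147 in Myof or S1pr3 B cells, which overlap. Fcrla (ENSMUSG00000038421, chromosome 1, 170917576 to 170927583, minus strand), whose protein stays inside the cell, read 309 and 331 CPM in IgD-positive and 343 and 388 in Cd93 B cells. Fcrl5 (ENSMUSG00000048031, chromosome 3, 87435773 to 87500678, plus strand) was uneven: 36.4 (33.7 to 39.1) and 34.1 (31.4 to 36.9) CPM in IgD-positive B cells against 115 (102 to 129.6) and 115 (101 to 130.3) in Myof or S1pr3 B cells.

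Of the complement genes, Cr2 (ENSMUSG00000026616, chromosome 1, 195136811 to 195176716, minus strand) had the same order in both libraries. It read 740.4 (707 to 775) and 712 (676 to 749) CPM in Myof or S1pr3 B cells, 348 and 336 in IgD-negative, 339 and 313 in IgD-positive, and 218 and 185 in Cd93 B cells, the middle pair overlapping. Cd55 (ENSMUSG00000026399, chromosome 1, 130439027 to 130462744, minus strand), whose protein takes apart the enzymes that activate complement C3, was lowest where Cr2 was highest. It read 498 and 502 CPM in IgD-positive, 439.8 and 415 in IgD-negative, 326 and 327 in Cd93, and 247 and 223 in Myof or S1pr3 B cells, with no neighbours overlapping. Cd59a (ENSMUSG00000032679, chromosome 2, 104095801 to 104115354, plus strand), whose protein blocks the membrane attack complex, was rarely detected, on 55 ALLO and 17 SYN UMIs over all B cells. Cd55 and Cd59a each have a related neighbouring gene, Cd55b and Cd59b. Whether the counting split reads between the copies was not tested.

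**Figure D1:**
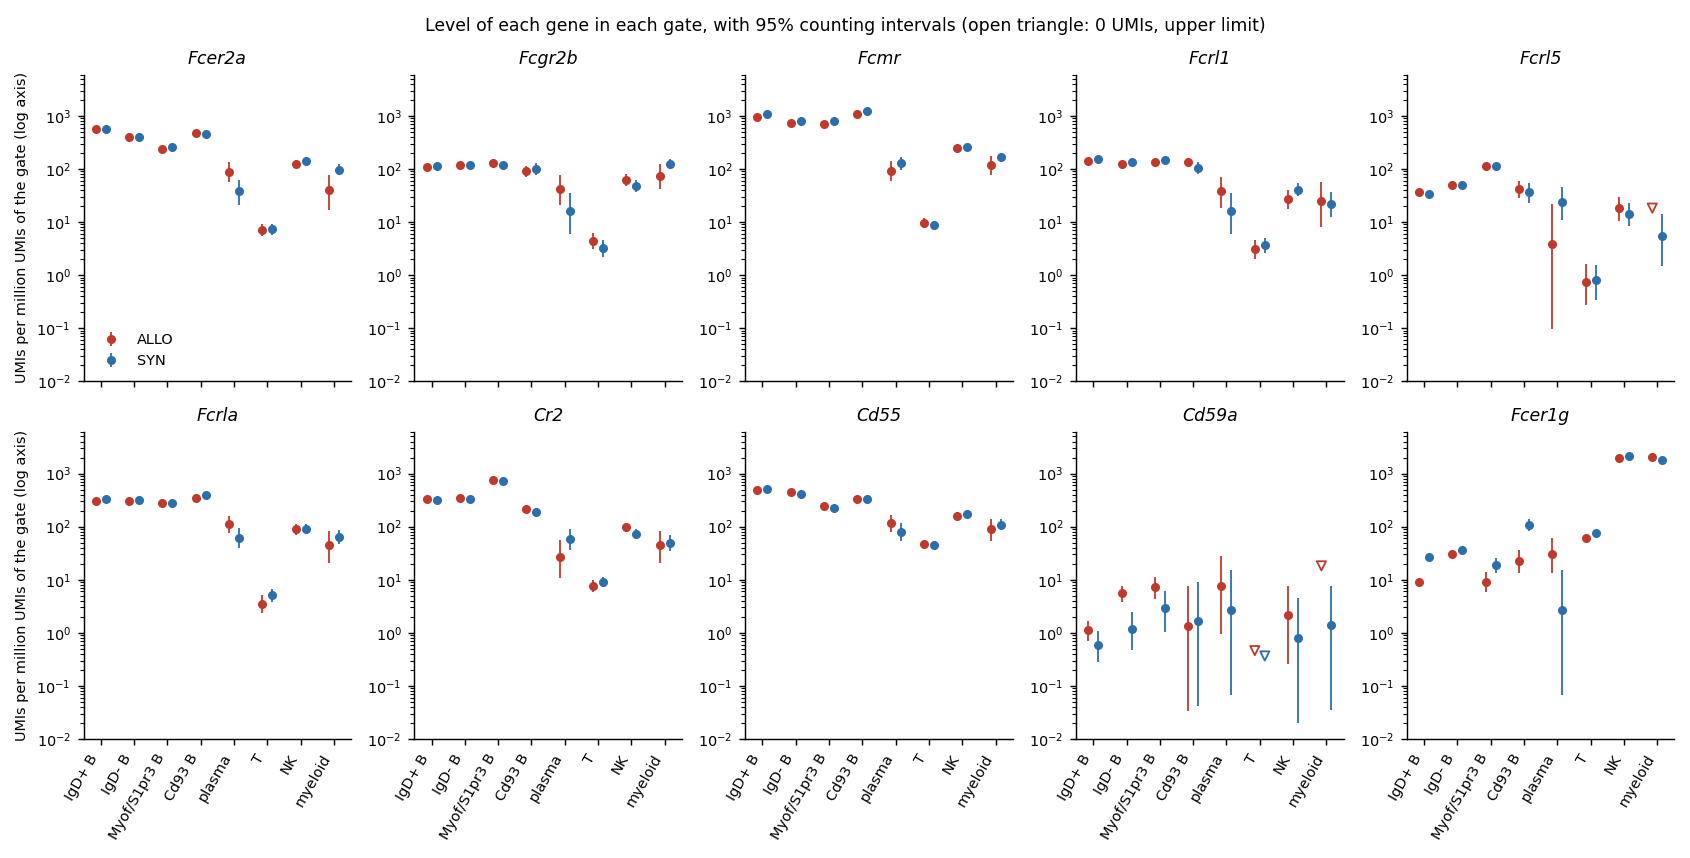
Level of each gene (CPM, log axis) in the 8 gates of the ALLO (red) and SYN (blue) library; bars are 95% counting intervals and open triangles are upper limits where no UMI was counted. Red and blue points nearly coincide in the B cell gates for 8 genes, Cd59a is near 1 CPM in IgD-positive B cells, and Fcer1g is near 2000 CPM in NK and myeloid cells.

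In IgD-positive B cells the ALLO and SYN libraries were close for 8 of the 10 genes. The ratios of ALLO to SYN ran from 0.879 for Fcmr to 1.08 for Cr2. Fcer1g, an adaptor, was 2.94-fold lower (2.46 to 3.51) in ALLO, and Cd59a had too few UMIs, 22 and 10. So 0 of 9 measured genes were called higher and 1 called lower, where 1.59% of 10786 genes tested were called higher and 2.54% lower. The median log2 ratio was -0.03 for the 9 genes and -0.06 for all genes tested.

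Fcmr was lower in ALLO in each B cell gate, by a small amount, but in Cd93 B cells it was higher (log2 ratio 0.58) when gate limits were doubled, which left 16 cells in each library. The ratio was 0.879 (0.862 to 0.897) in IgD-positive, 0.894 (0.858 to 0.932) in IgD-negative, 0.906 (0.847 to 0.969) in Myof or S1pr3 and 0.892 (0.806 to 0.987) in Cd93 B cells. Over all B cells it was 0.887 and lay between 0.880 and 0.930 under the alternatives of scaling, gating and depth. Cr2 differed in the opposite direction, with 341 against 319 CPM over all B cells, a ratio of 1.07 (1.04 to 1.10) and a range of 1.05 to 1.12 under the same alternatives. Fcrl1 and Fcrla were lower in ALLO, at ratios of 0.936 (0.893 to 0.981) and 0.938 (0.909 to 0.968). The median ratio of all genes over all B cells was 0.954, which lies inside both intervals. Under the same alternatives the ranges were 0.912 to 0.981 for Fcrl1 and 0.917 to 0.983 for Fcrla. The intervals of Fcer2a, Fcgr2b, Fcrl5 and Cd55 over all B cells spanned 1, with ratios of 0.988 (0.964 to 1.01), 0.996 (0.945 to 1.05), 1.04 (0.949 to 1.14) and 1.01 (0.983 to 1.04). The median ratio of 0.954 lay below the intervals of Fcer2a and Cd55 and inside those of Fcgr2b and Fcrl5.

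In IgD-negative B cells 0 of 9 measured genes were called higher and 0 lower, where 1.65% and 3.68% of all genes were. The ratios ran from 0.824 for Fcer1g to 1.06 for Cd55. In Myof or S1pr3 B cells 0 of 9 were called higher and 1 lower (Fcer1g, on 23 and 40 UMIs in 4 and 5 cells, with 75.0% of the SYN UMIs in a single cell), where the shares of all genes were 1.97% and 4.77%. In Cd93 B cells 0 of 9 were called higher and 1 lower, again Fcer1g, on 17 and 65 UMIs, where the shares were 4.77% and 5.72%. Both of these Fcer1g calls were lost with barcodes of 1 lineage gate and with thinned cells, and the first also with cells of equal weight. A call also needs a minimum of UMIs, so a lost call need not be a lost difference. In Cd93 B cells the Fcer1g ratio lay between 0.054 and 0.55 in every setting that gave a ratio, always past 1.5-fold lower. These UMIs lay in few cells, with a large part in a single cell, as given below for the Cd93 gate. The settings largely share these cells, so they are not separate evidence. In Myof or S1pr3 B cells the Fcer1g ratio lay between 0.27 and 0.90.

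**Figure D2:**
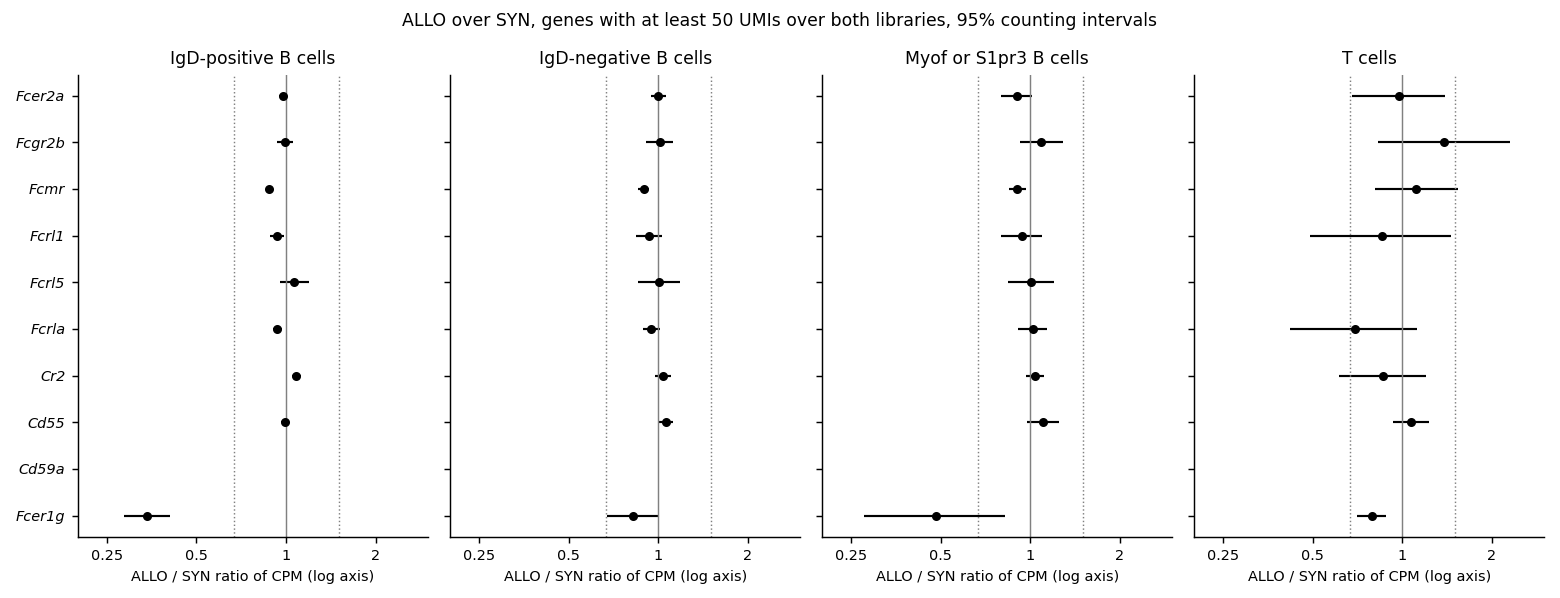
Ratio of ALLO to SYN (log axis) for each gene in 4 gates, with 95% counting intervals; the solid line is 1 and the dotted lines are 1.5-fold either way. In the 3 B cell gates the genes other than Fcer1g lie between 0.879 and 1.10, and genes with under 50 UMIs over both libraries are left blank.

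Cd59a was the 1 of 10 genes called higher in ALLO over all B cells. Over all B cells it read 2.13 CPM (1.61 to 2.78, ALLO) and 0.734 CPM (0.427 to 1.17, SYN), 2.91-fold higher (1.66 to 5.34), where 1.54% of 11214 genes tested were called higher. Fcer1g was the 1 of 10 called lower over all B cells, where 2.94% were. The Cd59a UMIs were spread over 52 cells of ALLO and 16 of SYN. Of the Cd59a UMIs, 33 of the 55 ALLO UMIs against 7 of the 17 SYN UMIs lay in IgD-negative cells. After thinning to 1000 UMIs only 8 and 3 B cells kept a Cd59a UMI, which is too few to compare.

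The B cells with a Cd59a UMI were a small set with features of their own in both libraries. Of them 61.5% (ALLO) and 43.8% (SYN) were IgD-negative, against 25.1% and 28.8% of the other B cells, and 30.8% and 31.3% carried a Myof or S1pr3 UMI, against 6.41% and 5.98%. S100a6, a gene of a calcium-binding protein that was chosen after its values were seen, read 236 and 192 CPM in them against 27.8 and 34.9 CPM. Their Fcer2a was 217 and 146 CPM (92 and 16 UMIs) against 526 and 529, and their Fcrl5 108 and 146 CPM (46 and 16 UMIs) against 38.4 and 37.6. Fcgr2b read 113 and 109.8 CPM in them, near the 112 and 113 CPM of other B cells. Their median depth was 6437 and 6587 UMIs against 3167.5 and 2999.5, and the part of this depth in the features was not tested. No T cell of either library had a Cd59a UMI. A count of 0, taken as up to 3 cells, allows a UMI in 0.169% of 1772 ALLO and 0.124% of 2417 SYN T cells, which limits cells with a UMI and not cells that express the gene.

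Within each library, Myof or S1pr3 B cells differed from the other IgD-positive B cells by at least 1.5-fold in 4 of the 9 measured genes. The others were IgD-positive cells without a Myof or S1pr3 UMI, while the Myof or S1pr3 cells were not limited to IgD-positive cells. Of the latter, 37.6% in ALLO and 40.0% in SYN were IgD-negative, and the part of IgD status in these ratios was not tested. Fcrl5 was higher, 115 against 31.0 CPM in ALLO (3.72-fold, 3.22 to 4.30) and 115 against 28.8 CPM in SYN (3.98-fold, 3.39 to 4.67). Cr2 was higher, 740.4 against 308 CPM (2.41-fold, 2.28 to 2.54) and 712 against 289 CPM (2.46-fold, 2.32 to 2.61). Fcer2a was lower, 233 against 584 CPM (2.50-fold, 2.30 to 2.73) and 259 against 592 CPM (2.28-fold, 2.09 to 2.49). Cd55 was lower, 247 against 519.6 CPM (2.11-fold, 1.94 to 2.29) and 223 against 521 CPM (2.33-fold, 2.13 to 2.57).

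So 2 of 9 genes were called higher and 2 lower in each library, where 6.05% and 7.73% of all genes tested were in ALLO and 6.63% and 8.23% in SYN. Fcmr missed the call, with 717 against 974 CPM in ALLO (1.36-fold lower, 1.29 to 1.43) and 791 against 1106 CPM in SYN (1.40-fold lower, 1.33 to 1.47). Fcrl1 did not differ by more than its interval, with ratios of 0.961 (0.856 to 1.08) and 0.959 (0.849 to 1.08). Fcgr2b had ALLO and SYN ratios of 1.18 (1.05 to 1.33) and 1.07 (0.937 to 1.23), and Fcrla of 0.890 (0.821 to 0.963) and 0.817 (0.748 to 0.891). Cd59a was under 50 UMIs in each, with 18 of its UMIs in the 460 ALLO cells and 13 in the 4923 others. A cell passes the gate with a single UMI of Myof or S1pr3, so the gate holds deeper cells, at a median of 4919 and 4265 UMIs against 3259.5 and 3105 for IgD-positive B cells. With at least 2 UMIs asked for, the gate kept 127 and 126 cells, and the log2 ratios became 2.28 and 2.56 for Fcrl5, 1.498 and 1.76 for Cr2, -2.03 and -2.30 for Fcer2a, and -1.32 and -1.75 for Cd55. Then Fcmr was also called lower in both libraries, as was Fcer1g, which had no UMI in the smaller ALLO gate.

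The sequences before the starts of Cr2, Fcrl5 and Fcer2a are shown, since these genes were high or low together in the Myof or S1pr3 B cells. They come from RefSeq's GRCm38.p6 annotation, where all 10 genes matched a promoter entry, and run 5′ to 3′ on the gene's strand over 240 bases that end 11 bases before the start. Capitals mark TGGGAA (the core of RBPJ, the factor of Notch signals), GAGGAA (the core of PU.1) or TATAAA (the TATA box), on either strand.
Cr2, chr1:195176730-195176969, minus strand: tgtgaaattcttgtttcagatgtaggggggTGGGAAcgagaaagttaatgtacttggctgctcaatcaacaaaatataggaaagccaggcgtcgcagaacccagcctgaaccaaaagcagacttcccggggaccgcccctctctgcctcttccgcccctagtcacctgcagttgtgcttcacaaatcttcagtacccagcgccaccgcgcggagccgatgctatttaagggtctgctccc
Fcrl5, chr3:87435532-87435771, plus strand: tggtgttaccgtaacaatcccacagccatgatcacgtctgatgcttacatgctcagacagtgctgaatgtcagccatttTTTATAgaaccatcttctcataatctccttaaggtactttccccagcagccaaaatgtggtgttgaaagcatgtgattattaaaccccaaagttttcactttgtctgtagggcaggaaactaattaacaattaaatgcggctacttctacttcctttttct
Fcer2a, chr8:3694185-3694424, minus strand: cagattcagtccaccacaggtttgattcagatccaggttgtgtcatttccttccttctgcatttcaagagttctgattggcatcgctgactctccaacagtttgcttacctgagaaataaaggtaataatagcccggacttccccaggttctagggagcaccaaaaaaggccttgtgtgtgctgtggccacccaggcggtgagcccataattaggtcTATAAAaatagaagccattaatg
Cr2 held 1 TGGGAA, 220 bases before its start, and this motif occurs in 20.8% of the 32851 RefSeq windows of the same length. Fcrl5 held 1 reverse TATAAA, 171 bases before the start, and Fcer2a 1 forward TATAAA, 33 bases before the start shown, a motif in 12.1% of windows. The 2 other RefSeq starts of Fcer2a lie inside the gene, and their windows held 2 and 1 of the RBPJ core and no TATA box. GAGGAA, found in 22.3% of windows, was in none of these windows. The matches describe these letters only.

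**Figure D3:**
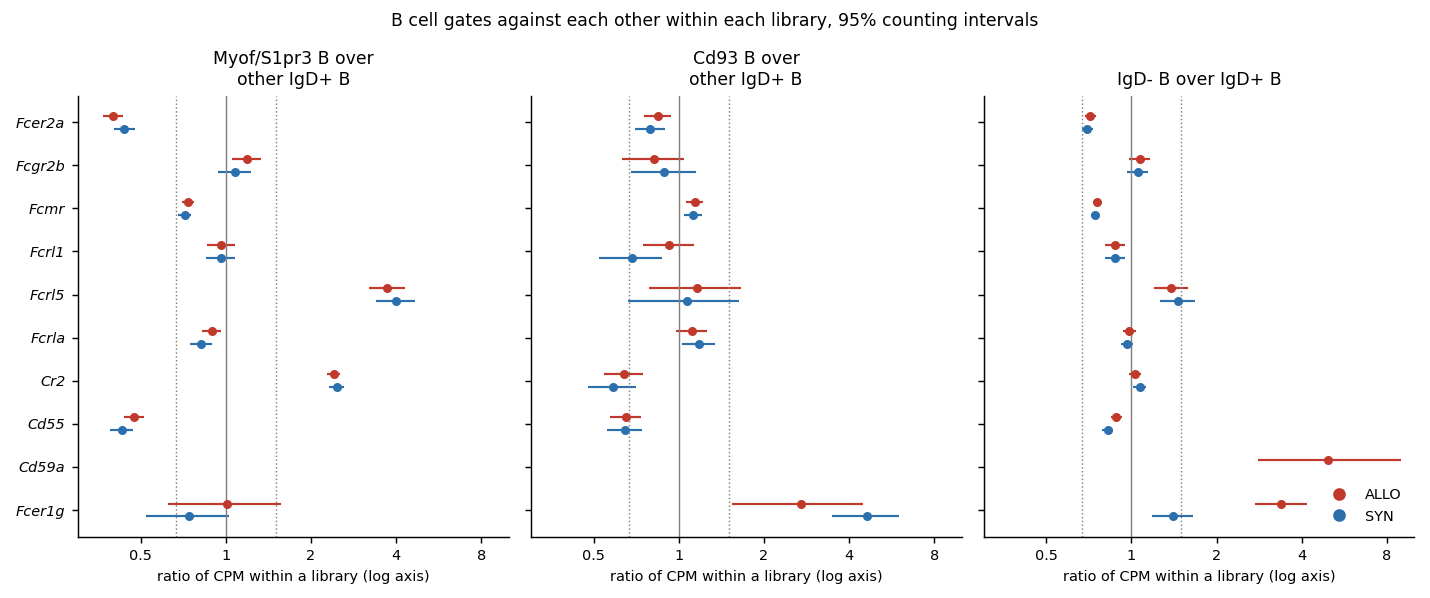
Ratio between B cell gates within each library (log axis), for Myof or S1pr3 over other IgD-positive B cells, Cd93 over other IgD-positive B cells, and IgD-negative over IgD-positive B cells, with 95% counting intervals and dotted lines at 1.5-fold; genes under 50 UMIs are left blank. Fcrl5 and Cr2 lie above 2 and Fcer2a and Cd55 below 0.5 in the first panel in both libraries. The Myof or S1pr3 and the Cd93 gate also hold IgD-negative cells.

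Cr2 and Fcer2a were set against each other cell by cell after thinning to 1000 UMIs. Within Myof or S1pr3 B cells, an Fcer2a UMI was found in 14.6% (10.1 to 20.02) of the 213 ALLO cells with a Cr2 UMI and 19.8% (15.1 to 25.4) of the 247 without, and in SYN in 17.9% (12.6 to 24.3) and 24.0% (18.7 to 30.0), all overlapping. In the other IgD-positive B cells of ALLO, Fcer2a was found in 48.2% (45.3 to 51.2) of cells with a Cr2 UMI and 41.8% (40.2 to 43.4) of those without, and in SYN in 43.1% (40.0 to 46.3) and 42.7% (41.1 to 44.3). So in the other IgD-positive B cells Fcer2a was found more often beside Cr2 than without it in ALLO, and the shares overlapped in SYN.

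Grouping all B cells by their Cr2 UMIs out of 1000 showed more Fcrl5 in cells with more Cr2. Fcrl5 read 18.9 (15.4 to 23.0) CPM in ALLO cells with no Cr2 UMI, 43.6 with 1, 47.9 with 2 and 188 (123 to 276) with 3 or more, and 24.1, 34.2, 76.3 and 115 (59.6 to 202) CPM in SYN. Cd55 was lower with more Cr2, from 574 (553 to 594) to 428 (325 to 551) CPM in ALLO and from 545 (525 to 565) to 346 (242 to 479) in SYN. Fcmr was lower too, from 927 to 601 CPM and from 1022 to 759.6, while Fcrl1 was higher, from 134 to 217 and from 147 to 298. Fcer2a had no single direction in ALLO, at 566 CPM (545 to 586) with no Cr2 UMI, 632 (589 to 677) with 1, 510.3 with 2 and 514 with 3 or more, and read 554, 551, 489.96 and 346 CPM in SYN. The ends of Fcgr2b overlapped, at 108 and 123 (71.8 to 197) CPM (ALLO) and at 113 and 183 (109.99 to 285) CPM (SYN). Grouped by Ighd UMIs instead, Fcmr was higher with more Ighd, from 852 to 1185 CPM in ALLO and from 952 to 1238 in SYN, and so was Fcer2a, from 526 to 694 and from 511 to 705. Fcrl5 was lower, from 34.3 to 11.6 CPM and from 39.2 to 10.4, the last values on 2 UMIs each.

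**Figure D4:**
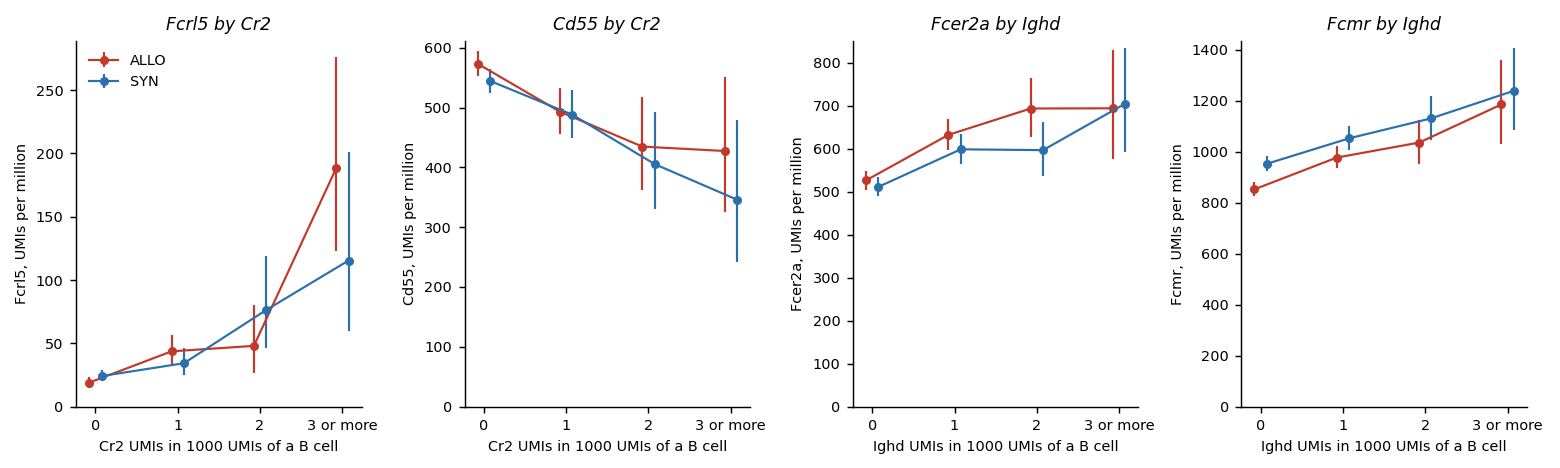
Level of Fcrl5 and Cd55 (CPM) in B cells grouped by Cr2 UMIs, and of Fcer2a and Fcmr grouped by Ighd UMIs, out of 1000 UMIs per cell, with 95% counting intervals in the ALLO (red) and SYN (blue) library. Fcrl5 reaches 188 and 115 CPM with 3 or more Cr2 UMIs, and Fcmr reaches 1185 and 1238 CPM with 3 or more Ighd UMIs.

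Cd93 B cells had less of 2 complement genes than the other IgD-positive B cells, those without a Cd93 UMI. Of the Cd93 B cells, 24.3% in ALLO and 29.9% in SYN were IgD-negative, and the part of this in the ratios was not tested. Cr2 was lower, 218 against 340.4 CPM in ALLO (1.56-fold, 1.34 to 1.84) and 185 against 316 CPM in SYN (1.71-fold, 1.42 to 2.08). Cd55 was lower, 326 against 501 CPM (1.54-fold, 1.35 to 1.76) and 327 against 505 CPM (1.55-fold, 1.34 to 1.79). These were the 2 of 9 measured genes called lower in each library, where 13.6% of all genes in ALLO and 15.1% in SYN were. Fcmr was slightly higher, at ratios of 1.14 (1.06 to 1.22) and 1.12 (1.04 to 1.21). Fcer1g was the 1 gene called higher in each, where 11.1% and 9.97% were, but it rested on 5 ALLO and 6 SYN cells, and a single cell held 58.8% and 46.2% of its UMIs.

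IgD-negative B cells had less Fcer2a than IgD-positive B cells, with ALLO and SYN ratios of 0.715 (0.684 to 0.748) and 0.698 (0.667 to 0.730), and less Fcmr, at 0.754 (0.729 to 0.779) and 0.741 (0.718 to 0.765). They had more Fcrl5, at 1.38 (1.201 to 1.58) and 1.46 (1.27 to 1.68). None of these passed 1.5-fold. A cell counted as IgD-negative when no Ighd UMI was read, and these cells were shallower. Their median depth was 2919 (ALLO) and 2674.5 (SYN) UMIs, against 3259.5 and 3105 for IgD-positive B cells. The part of depth in these ratios was not tested. In ALLO 2 of 10 genes were called higher, Cd59a (4.97-fold, 2.81 to 8.94) and Fcer1g (3.39-fold, 2.74 to 4.19), where 3.84% of all genes were. In SYN 0 of 9 were called higher, where 4.46% were, and in neither library was any of them called lower, where 1.74% and 1.5% were. Of the ALLO Fcer1g UMIs, 82.9% in IgD-negative cells lay in 24 barcodes that also passed the NK or myeloid gate. In IgD-positive cells 78.5% lay in 38 such barcodes. Without them Fcer1g read 5.31 and 1.94 CPM, on 31 and 38 UMIs, and their part in the call was not tested.

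In plasma cells, 8 of 9 measured genes were called lower than in IgD-positive B cells in each library, where 71.4% of all genes in ALLO and 51.2% in SYN were. Cr2 read 27.1 and 59.03 CPM and Fcmr 92.9 and 129 CPM, on 7 to 48 UMIs. Fcrl5 (24.1 CPM on 9 UMIs) was the gene not called in SYN. Fcer1g (31.0 CPM on 8 UMIs) was the 1 gene called higher in ALLO, where 6.65% of all genes were, and 0 were in SYN, where 11.5% were. Between libraries, Fcrla was the 1 of 3 measured genes called higher in ALLO plasma cells, 112 against 61.7 CPM (1.82-fold, 1.02 to 3.29) on 29 and 23 UMIs, and 0 were called lower, where 4.39% of all genes were called higher and 47.2% lower. When only barcodes of 1 lineage gate were kept, 12 in ALLO and 17 in SYN, Fcrla was no longer called. A call also needs a minimum of UMIs, so this need not be a lost difference. The Fcrla ratio lay between 1.61 and 5.81 in every setting that gave a ratio.

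Fcer1g (ENSMUSG00000058715, chromosome 1, 171229572 to 171234365, minus strand) encodes the gamma chain through which activating Fc receptors and NK receptors signal. It was a gene of NK and myeloid cells in these libraries, at 1971 (1882 to 2063) and 2140.0 (2060 to 2222) CPM in the NK gate and 2049 (1856 to 2256) and 1834 (1737 to 1936) CPM in the myeloid gate. In IgD-positive B cells its level was 8.94 CPM (7.67 to 10.4, ALLO) and 26.2 CPM (23.9 to 28.8, SYN).

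Most of the Fcer1g UMIs in B cells lay in barcodes that also passed the NK or myeloid gate. These were 62 of 6980 ALLO B cells and 154 of 6822 SYN B cells, and they held 80.7% and 80.3% of the UMIs, at 801 and 919 CPM. The 6 NK markers, all detected, summed to 69.6 CPM in ALLO and 102 in SYN B cells, and 4 neutrophil markers, all detected, to 4.30 and 474 CPM. Without those barcodes Fcer1g had 69 UMIs or 2.71 CPM in ALLO and 132 UMIs or 5.85 CPM in SYN, the NK markers were at 7.79 and 16.6 CPM and the neutrophil markers at 4.33 and 26.2 CPM. With only barcodes of 1 lineage gate the log2 ratio was -1.12 over all B cells, against -1.06 with all barcodes. The part of the remaining NK and neutrophil signal in it was not tested.

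In T cells, Fcer1g read 59.95 CPM (54.7 to 65.6, ALLO) and 76.1 CPM (70.8 to 81.6, SYN), a ratio of 0.788 (0.702 to 0.885) that was not called. The UMIs were concentrated in T cells without Cd4, Cd8a or Cd8b1 UMIs, which held 82.7% and 72.5% of them at 187 and 184 CPM, a ratio of 1.01 (0.889 to 1.16). T cells with an Ncr1 or Klrb1c UMI read 502 (447 to 563) and 665 (605 to 729) CPM. T cells with Cd8a or Cd8b1 UMIs read 19.3 and 45.7 CPM, a ratio of 0.422 (0.305 to 0.577) on 58 and 138 UMIs, and those with Cd4 UMIs 9.61 and 17.4 CPM, a ratio of 0.553 (0.333 to 0.892) on 25 and 63. Few cells held these UMIs: 3.39% of 590 ALLO and 6.25% of 608 SYN cells with Cd8a or Cd8b1 UMIs. Among cells with Cd4 UMIs it was 0.697% of 574 and 1.03% of 872. The intervals treat UMIs as independent, so they are too narrow where few cells hold many. The 6 NK markers summed to 883 CPM in ALLO and 649 in SYN T cells, and the 4 neutrophil markers to 1336 (Cxcr2 at 0) and 564 CPM. Their part in these values was not tested.

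**Figure D5:**
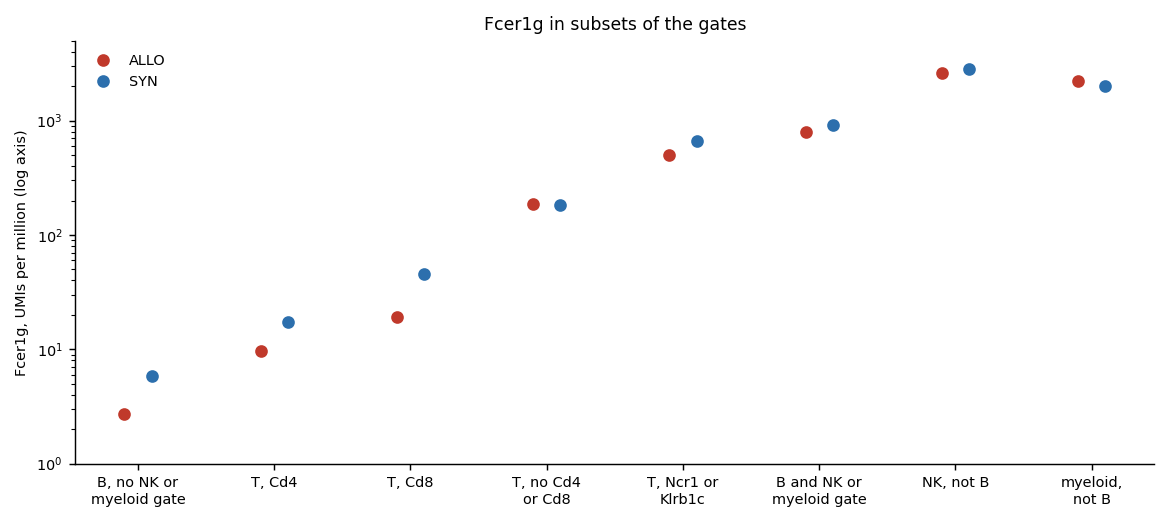
Fcer1g (CPM, log axis) in subsets of the gates of the ALLO (red) and SYN (blue) library. B cells outside the NK and myeloid gates are lowest at 2.71 and 5.85 CPM, T cells with an Ncr1 or Klrb1c UMI reach 502 and 665 CPM, and NK cells outside the B cell gate are highest at 2627 and 2831 CPM.

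Among the other genes, Cd55 kept the largest share of its B cell level in T cells in both libraries. Cd55 read 47.3 CPM (42.7 to 52.3, ALLO) and 44.2 CPM (40.2 to 48.5, SYN) in T cells, 9.77% and 9.21% of its level in B cells. Fcer2a, Fcmr, Fcrl1, Fcrl5, Fcrla and Cr2 read from 0.849% to 2.83% of their B cell level, and Fcgr2b 3.90% and 2.82%, while 5 B cell markers read 1.29% and 1.47%. Cd55 was alike in T cells with Cd4 UMIs (46.9 and 40.0 CPM), with Cd8a or Cd8b1 UMIs (47.2 and 42.7) and with neither (49.6 and 52.2). After thinning, 5.53% and 4.96% of T cells kept a Cd55 UMI, against 38.5% and 37.3% of B cells. In T cells 0 of 8 measured genes were called higher in ALLO and 0 lower, where 3.48% and 2.06% of all genes were.

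In the NK gate, B cell receptor genes followed barcodes that also passed the B cell gate, 57 of 241 in ALLO and 109 of 370 in SYN. Fcer2a read 334 and 368 CPM in these and 9.90 and 24.4 CPM in the other NK cells, and Fcmr 670.3 and 692 against 21.4 and 21.9. Fcgr2b kept 37.9 (24.0 to 56.9) and 30.5 (19.7 to 45.0) CPM and Cd55 66.0 (47.1 to 89.8) and 58.5 (43.1 to 77.6) CPM in NK cells outside the B cell gate. Of 8 measured genes, 0 were called higher in ALLO NK cells and Fcrl1 lower (25 and 51 UMIs), where 2.84% and 5.06% of all genes were. Without the barcodes of another gate, Fcrl1 was no longer called. NK cells outside the B cell gate held 2 ALLO and 4 SYN Fcrl1 UMIs, too few for a call in either direction.

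In the myeloid gate, Fcgr2b read 58.4 CPM (28.0 to 107, ALLO) and 128 CPM (100.01 to 160.4, SYN) in barcodes outside the B cell gate. Fcer1g read 2203 and 2012 CPM there. Over the whole gate, 0 of 6 measured genes were called higher in ALLO and 2 lower, Fcer2a (8 and 70 UMIs) and Fcgr2b (15 and 89 UMIs), where 4.58% of all genes were called higher and 28.1% lower. A single SYN cell held 17 of the 89 Fcgr2b UMIs.

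Related genes were read from lists fixed by function. Of 11 other Fc receptor genes, 3 were measured in IgD-positive B cells and none was called: Fcgrt, whose protein carries IgG through cells, read 22.6 and 22.4 CPM, Trim21, an antibody receptor of the cytosol, 19.2 and 17.3, and Pigr, which carries IgA and IgM across epithelia, 9.09 and 6.55 (ratio 1.39, 1.09 to 1.77). In that gate 1.59% of all genes were called higher and 2.54% lower. Of 17 other complement receptor and regulator genes, 8 were measured, and the integrin genes Itgam (2.59-fold, on 27 and 61 UMIs) and Itgax (2.17-fold, on 18 and 34) were called lower in ALLO. Itgax was higher in ALLO, at a log2 ratio of 0.58, when gates and values came from thinned cells. Of 22 genes of signal partners, 21 were measured and 3 were called lower: Lcp2 (2.16-fold), Cd247 (1.98-fold), both adaptors of T and NK cells, and Tyrobp (1.67-fold, 1.54 to 1.81), an adaptor of NK and myeloid cells at 50.1 and 83.5 CPM. In the same gate the 6 NK markers summed to 46.2 CPM in ALLO and 99.3 in SYN and the 4 neutrophil markers to 4.24 and 215 CPM, and their part in these calls was not tested. The median log2 ratio of the signal partners was -0.11, and that of the complement genes -0.25, against -0.06 for all genes tested. In T cells, where 3.48% of all genes were called higher and 2.06% lower, Itgax was the 1 of 6 measured complement genes called higher in ALLO (1.77-fold). Of 20 measured signal partners 3 were called lower there, among them Dok3 and Syk (2.004- and 1.60-fold), on 19 to 91 UMIs. Fcgrt and Trim21 were the measured Fc receptor genes of T cells, at ratios of 1.46 (1.17 to 1.81) and 1.06 (0.882 to 1.27). In the myeloid gate, where 28.1% of all genes were called lower and 4.58% higher, 1 of 2 measured Fc receptor genes (Fcgr4), 3 of 6 complement genes (C1qbp, C5ar1 and Calr) and 3 of 18 signal partners (Ifitm1, Adam10 and Syk) were called lower, with 6 to 22 UMIs in ALLO each. Cd81 (17 and 40 UMIs) was the 1 called higher. Thinning turned the direction of Cd81, and that of Calr turned when gates came from thinned cells or cells weighed the same.

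The genes closest in pattern to each receptor were found over 16 points, 8 gates without shared cells in 2 libraries, by Pearson's r of log2(CPM + 1) among 9332 genes. The points share libraries and cell types, and r is a description. Fcer2a and Fcmr were closest to Scd1 (r 0.98 and 0.99) and Swap70 (0.97 and 0.99), and Fcer2a then to Ebf1 (0.97). Cr2 was closest to Blk (0.98), Trim7 and Tmem123 (both 0.97), and Fcrl5 to Hs3st1 and Sema4b (both 0.96) and Rapgef5 (0.94). Fcrl1 was closest to Snn (0.99), Cd22 and Swap70, Fcrla to Cd79b (0.99), Snn and Cyb561a3, and Fcgr2b to Sh3bp2, Plekhm3 and Syk (all 0.96). Cd55 was closest to Snx2 and Hvcn1 (both 0.97) and Fchsd2 (0.97), and Fcer1g to Myo1f, Ccr2 (both 0.97) and Metrnl (0.96).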

How the data were processed

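Spleen cells were measured in 1 ALLO and 1 SYN library, grouped by sample title. The deposited files hold raw UMI counts per gene and barcode, and per the submitters' processing notes the authors used Cell Ranger 6.0.2, FastQC and the mm10 build. The annotation release is not given in the sources used here. No barcode held under 500 UMIs. Depth was 39476214 UMIs in ALLO and 45435231 in SYN, and barcodes under 1000 UMIs (1259 and 6510) were left out, as were those in no gate (971 and 1659) from the gates. Counts were summed per gate and library and divided by the gate's UMIs. Intervals were exact (Poisson for levels, conditional binomial for ratios, Clopper-Pearson for shares), computed in Python 3.11.15 with scipy 1.17.1. Shares of cells were taken after thinning each cell to 1000 UMIs at random. Gene positions come from GENCODE M21 (GRCm38, the build mm10). Scrublet, through scanpy 1.11.5, marked 1 of 10744 ALLO and 0 of 17459 SYN barcodes, so it did not work as a doublet filter, and doublets stay in. The computation was tested on simulated counts for IgD-positive B cells, where 95.8% of intervals over 10786 genes covered the true ratio and 1.04% of unchanged genes passed 1.5-fold. In the simulated myeloid gate (2751 genes) 11.1% of unchanged genes did, and in T cells (10035 genes) 1.62%. The draws were Poisson, the model that the intervals assume, with no added spread between cells or libraries. These shares therefore check the computation only and are not error rates of the real data. The 10 genes, gates and lists were chosen with earlier results of these data known. All 10 are named in each gate. Of the related lists, up to 4 genes a direction past 1.5-fold in IgD-positive B, T and myeloid cells are named, otherwise the 3 with most UMIs, and for each of the 10 with at least 200 UMIs the 3 genes of most like pattern. A gene that these rules would name is not reported here. Alternatives were other depths, scalings, gate limits and filters.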

Additional observations from a re-analysis of the deposited data

Results flagged for a closer look

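Fcrla was 1.82-fold higher (1.02 to 3.29) in ALLO than SYN plasma cells, on 29 and 23 UMIs, while in IgD-positive B cells it was lower, at a ratio of 0.934 (0.901 to 0.968). It is listed because the 2 gates went in opposite directions by their counting intervals, and the difference between gates was not tested.

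Barcodes under 1000 UMIs, 1259 in ALLO and 6510 in SYN, entered no comparison of the report, only the alternative with a minimum of 500 UMIs. In them Cr2 read 616 CPM in ALLO and 265 in SYN, 2.32-fold higher (2.10 to 2.56), Cd55 616 and 439 CPM, 1.40-fold higher (1.28 to 1.54), Fcrl1 1.26-fold higher (1.02 to 1.56) and Fcer2a 1.1997-fold higher (1.08 to 1.33). Fcmr went the other way, with 309 and 533 CPM and a ratio of 0.581 (0.512 to 0.656), as did Fcrla (0.678, 0.546 to 0.835) and Fcer1g (0.577, 0.435 to 0.753). In barcodes of at least 1000 UMIs that passed no gate, 971 and 1659, Cr2 was 1.15-fold higher (1.06 to 1.26) in ALLO. Lower in these were Fcmr (0.735, 0.691 to 0.782), Fcer1g (0.709, 0.579 to 0.864), Fcrla (0.821, 0.735 to 0.917) and Fcrl1 (0.830, 0.709 to 0.970). Neither set of barcodes was split by cell type or set against all genes. The part of a different mix of cells or droplets in these ratios was not tested.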

How the results depend on the processing

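The 14 alternatives gave 308 counts of called genes, of which 250 stayed within 1.5 times the reported count, counts of 0 that stayed 0 among them. The alternatives with genes of at least 20 UMIs and of at least 1 UMI gave counts only. The others gave 1324 ratios of single genes, of which 1138 stayed within the counting interval. In the list below a number is the count of the 10 genes called in that gate. A count also moves when a gene passes or misses the UMIs needed for a call. The share of all genes called was not taken under the alternatives. So a moved count cannot be told apart from a shift of all genes. Called higher in ALLO in plasma cells were 2 with at least 2000 UMIs per barcode, with scaling by the median ratio, with the total freed of immunoglobulin, mitochondrial and ribosomal protein genes and with genes of at least 20 UMIs, 6 with genes of at least 1 UMI, and 0 with barcodes of 1 lineage gate, doubled gate limits and both thinned settings. Called lower in plasma cells were 1 with at least 20 UMIs and 2 with at least 1. Called higher in IgD-positive, IgD-negative and Myof or S1pr3 B cells was 1 (Cd59a) in each with at least 20 and with at least 1 UMI, and over all B cells 0 in both thinned settings. Called lower in IgD-positive B cells were 0 when gates came from thinned cells. Called lower in IgD-negative B cells was 1 (Fcer1g) with a minimum of 500 UMIs, with barcodes of 1 gate, in both thinned settings and with cells of equal weight. Called lower in Myof or S1pr3 B cells were 0 with barcodes of 1 gate, doubled limits, both thinned settings and cells of equal weight. In Cd93 B cells 0 were lower with barcodes of 1 gate and both thinned settings, and 1 (Fcrla) was higher with doubled limits. Called higher in T cells were 2 with at least 2000 UMIs. Called lower in T cells were 5 with a minimum of 500 UMIs, 2 with cells of equal weight, and 1 each with barcodes of 1 gate, with gates from thinned cells and with at least 10% of UMIs on ribosomal protein genes. Called lower in NK cells were 0 with at least 2000 UMIs, both other scalings, barcodes of 1 gate, both thinned settings, cells of equal weight and the ribosomal minimum, and 1 (Cd59a) was higher with at least 1 UMI. Called lower in myeloid cells were 4 with a minimum of 500 UMIs and with at least 1 UMI, 1 with at least 2000 UMIs, with the median ratio and with the ribosomal minimum, and 0 in both thinned settings. Between B cell gates, 4 were lower in Myof or S1pr3 B cells in each library with doubled limits. Among genes called apart, the log2 ratio changed sign for Cd81 (-0.50 thinned, -0.31 with gates from thinned cells) and Calr (0.43 with gates from thinned cells, 0.42 with cells of equal weight) in myeloid cells and for Itgax (0.58 with gates from thinned cells) in IgD-positive B cells. Ratios that were not called changed sign too, among them Fcmr in Cd93 B cells (up to 0.58) and T cells (down to -1.02), Fcgr2b in Cd93 B cells (up to 1.28) and Cr2 in NK cells (down to -0.68). The causes were not tested.

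The median log2 ratio of all genes was -0.55 in plasma cells and -0.28 in myeloid cells, so values there are read against that shift. The settings without shared barcodes and with a ribosomal minimum were chosen after seeing the data. No paired analysis was possible because each group holds 1 library. Depth limits Cd59a, which had at least 50 UMIs between libraries over all B cells and in no smaller gate, and the plasma gate, where 3 of the 10 genes were measured.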

Other observations

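Fcmr UMIs in T cells with Cd4 UMIs numbered 33 in ALLO and 19 in SYN, or 12.7 (8.73 to 17.8) and 5.24 (3.16 to 8.19) CPM, a ratio of 2.42 (1.34 to 4.51). In T cells with Cd8a or Cd8b1 UMIs the ratio was 0.803 (0.423 to 1.51), on 20 and 25 UMIs. Fcer1g aside, the Fcmr ratio with Cd4 UMIs was the only ratio of the T cell subsets whose interval did not span 1. In T cells with Cd4 UMIs, Fcer2a (1.83), Fcgr2b (2.79), Fcrl5 (2.79) and Cd55 (1.17) were higher in ALLO. Fcrl1 (0.796), Fcrla (0.523) and Cr2 (0.629) were lower there, all with intervals spanning 1. The Fcmr levels are near those of B cell genes in T cells, and the difference between the subsets was not tested.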
